A study of Mus musculus with 10 samples.

Results

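Genes of alveolar water and ion transport were read from whole-lung RNA of neonatal mice, 9 of the 54532 genes of the table, which were found under their names: Aqp1, Aqp3, Aqp4, Aqp5, Scnn1a, Scnn1b, Scnn1g, Atp1b1 and Cftr. They were chosen by name and function, with earlier results of these data known. Wild-type (WT) C57/BL6 pups, male or female, were operated on at P7 under 4% isoflurane, and their lungs were collected at P14. In pups of the IncPBF (increased pulmonary blood flow) group (5 lungs) the abdominal aorta was punctured through into the inferior vena cava, which leaves an arteriovenous fistula, and in pups of the sham group (5 lungs) the same operation was done without the puncture. Neither group carried a transgene or received a drug beyond the anesthetic, and the puncture is all that separates them in the labels. The comparison of IncPBF with sham lungs asks how a rise of pulmonary blood flow during alveolar development bears on these genes.

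The air side of an alveolus is kept nearly dry by active sodium transport. Sodium enters alveolar type 1 (AT1) and type 2 (AT2) cells through the epithelial sodium channel ENaC, a complex of an alpha, a beta and a gamma subunit (Scnn1a, Scnn1b, Scnn1g), and is pumped out on the basal side by the Na,K-ATPase, whose beta-1 subunit is Atp1b1. Chloride follows in part through the CFTR channel, and water follows through the cells and through aquaporins, of which Aqp5 lies on the apical face of AT1 cells, Aqp1 in the endothelium of capillaries and in red blood cells, and Aqp3 and Aqp4 on the basolateral face of airway epithelium. This machinery is induced around birth, when glucocorticoids and beta-adrenergic agonists raise ENaC and pump activity and the fluid of the fetal lung is cleared.

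Each lung gave 1 library with 16103423 to 20318525 fragments on genes in the IncPBF group and 18171494 to 19400575 in the sham group. Values are FPKM, that is, fragments per kilobase of a gene, scaled for library size. The labels number the lungs but do not say that each came from a separate animal, so p-values measure only the spread between these samples. Lung identity was clear from Sftpc, the surfactant protein of AT2 cells, at 9583 to 14074 FPKM in the 10 lungs. Some lungs stood apart within their group before any comparison. Xist, transcribed from the inactive X chromosome of females, lay at 52.4 to 66.5 FPKM in IncPBF lungs 2 to 5 and at no more than 0.0770 FPKM in IncPBF lung 1 and all 5 sham lungs, while the Y-linked gene Ddx3y lay at 18.6 to 24.6 FPKM in the latter 6 lungs and at no more than 0.00926 FPKM in the former 4. Sex-linked expression and surgery therefore cannot be told apart in 9 of the 10 lungs, and IncPBF lung 1 is the 1 lung that separates them. Sham lung 5 was low in airway genes, with 128 FPKM of the club-cell secretoglobin Scgb1a1 against 4802 to 11743 FPKM in the other lungs, and 0.285 FPKM of Foxj1, the ciliated-cell regulator, against 6.56 to 16.7 FPKM.

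The genes lie on 6 chromosomes of GRCm38, as the coordinates of the deposited table give them. Scnn1g (ENSMUSG00000000216, chr7:121734479-121768475, plus strand) and Scnn1b (ENSMUSG00000030873, chr7:121865038-121918514, plus strand) are neighbours in the same orientation, whereas Scnn1a (ENSMUSG00000030340, chr6:125320659-125344943, plus strand) lies on chromosome 6 with Aqp1 (ENSMUSG00000004655, chr6:55336432-55348555, plus strand) and Cftr (ENSMUSG00000041301, chr6:18170687-18322768, plus strand). Atp1b1 (ENSMUSG00000026576) spans chr1:164437109-164458355 on the minus strand, Aqp3 (ENSMUSG00000028435) chr4:41092722-41098183 on the minus strand and Aqp5 (ENSMUSG00000044217) chr15:99590782-99594829 on the plus strand. Fragments of overlapping genes on opposite strands cannot be told apart, since the use of strand in counting is not given in the sources used here. Of the exon bases of Atp1b1, 575 of 3081 are shared with Nme7, which lay at 1.46 to 2.02 FPKM, and of those of Cftr 129 of 7765 are shared with Gm15592, at no more than 0.0673 FPKM.

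The 250 bases before the start of 7 of the 9 genes were read from RefSeq on GRCm38.p6, and those of 3 genes that fell together without overlap of the groups (values below) are shown 5' to 3' on the strand of the gene. The window of Aqp5 ends at a RefSeq start inside the gene as the deposited table places it, and so lies almost wholly within that gene. Capitals mark the letters GGGCGG, a GC box bound by Sp family factors, and CCAAT, the CCAAT box, on either strand. The windows are chr1:164458356-164458605 for Atp1b1, chr7:121734229-121734478 for Scnn1g and chr7:121864788-121865037 for Scnn1b.
Atp1b1: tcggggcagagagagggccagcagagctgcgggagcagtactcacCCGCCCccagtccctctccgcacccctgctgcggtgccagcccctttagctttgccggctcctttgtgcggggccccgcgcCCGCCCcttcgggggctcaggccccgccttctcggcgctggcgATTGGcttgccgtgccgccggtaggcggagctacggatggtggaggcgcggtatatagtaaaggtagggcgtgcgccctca
Scnn1g: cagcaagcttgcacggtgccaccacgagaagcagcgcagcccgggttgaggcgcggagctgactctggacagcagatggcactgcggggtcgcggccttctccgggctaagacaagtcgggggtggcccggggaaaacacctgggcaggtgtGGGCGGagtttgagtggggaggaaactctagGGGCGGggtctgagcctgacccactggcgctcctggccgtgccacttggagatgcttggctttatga
Scnn1b: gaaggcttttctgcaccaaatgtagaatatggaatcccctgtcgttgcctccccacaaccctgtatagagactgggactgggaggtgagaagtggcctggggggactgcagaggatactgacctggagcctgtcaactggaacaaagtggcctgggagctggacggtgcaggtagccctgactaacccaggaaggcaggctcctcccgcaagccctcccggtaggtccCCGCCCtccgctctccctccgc
The GC box occurs 2 times in the window of Atp1b1, 2 times in that of Scnn1g and 1 time in that of Scnn1b, and the CCAAT box 1 time in that of Atp1b1. All 7 windows hold at least 1 GC box, with 6 in that of Cftr, where overlapping copies were counted. Of the 13665 windows of tested genes 55.8% hold one. The CCAAT letters are in 34.6% of those windows. AGAACA, the half-site letters of the glucocorticoid receptor, was searched on both strands. It is in none of the 7 windows and in 10.7% of all windows, which says only that these letters are not there. TATAAA was found only in the window of Aqp3 among the 7 (6.70% of all windows) and CACGTG, the E-box, only in that of Aqp5 (7.98%), within the gene as deposited. No window was read for Scnn1a or Aqp4, and the 13665 windows do not cover all 15388 genes tested.

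Of the 9 genes, 8 reached the mean of 0.5 FPKM that was set for testing and Aqp3 did not. On log2(FPKM + 0.1), 6 of these 8 were lower in IncPBF lungs and 0 higher, by limma with Benjamini-Hochberg adjustment over all 15388 genes tested and a threshold of 0.05. Over all genes tested 16.2% were lower and 16.1% higher. None of the 8 was higher at an unadjusted p under 0.05 or by limma-voom either. The groups did not overlap for 4 of the 8, all lower, against 11.2% of all genes tested. The median log2 fold change was -0.53 over the 8 genes and 0.01 over all genes tested. The 4 genes without overlap were Scnn1a, Scnn1b, Scnn1g and Atp1b1, that is, every subunit of the sodium channel and the beta-1 subunit of the pump, and the 2 other genes that fell were the aquaporins Aqp1 and Aqp5. In IncPBF lung 1, which shares low Xist with the sham lungs, each of the 6 genes lay below its lowest sham value. With Xist (log2 FPKM) as a covariate 3 of the 6 kept the call, Scnn1a, Scnn1g and Atp1b1, and Scnn1b, Aqp1 and Aqp5 lost it. The log2 fold change of Aqp5 was then -0.246 (SE 0.149), against -0.253 (SE 0.0825) without the covariate.

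**Figure D1:**
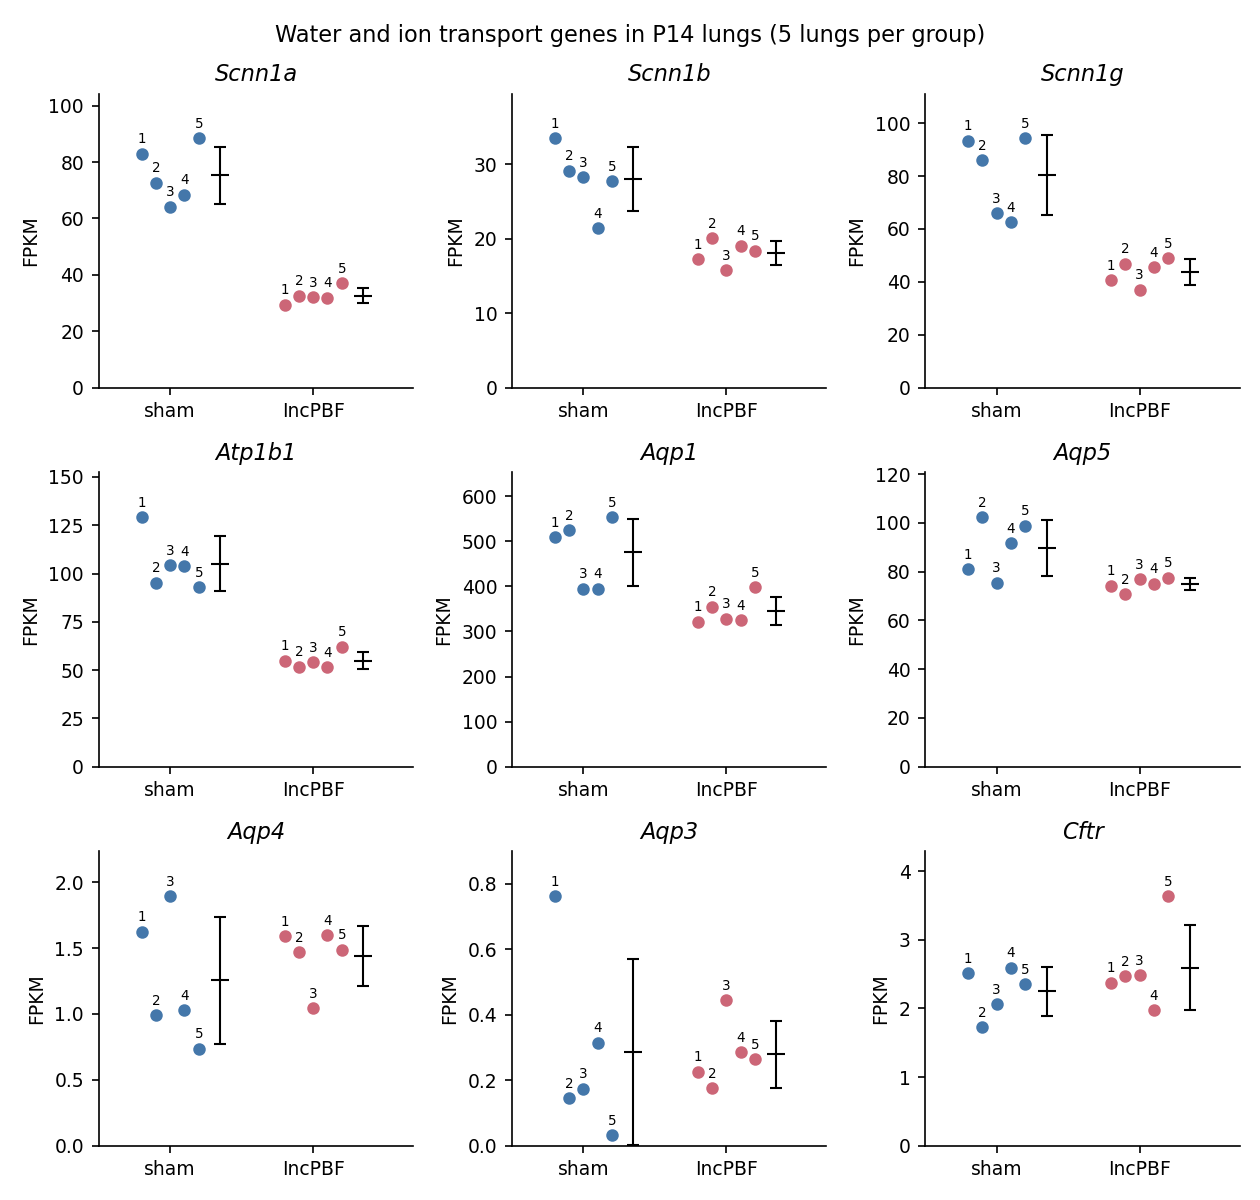
FPKM of the 9 genes in each lung (points, numbered by lung), sham in blue and IncPBF in red, with the group mean and SD as bars beside the points (n = 5), each panel with its own linear axis from 0. All IncPBF points lie below all sham points for Scnn1a, Scnn1b, Scnn1g and Atp1b1, whereas the groups overlap for the other 5 genes.

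Scnn1a, the pore-forming alpha subunit without which ENaC does not reach the membrane as a working channel, showed the largest fall of the 9 genes. Its level was 29.5, 32.6, 32.1, 31.9 and 37.1 FPKM in IncPBF lungs 1 to 5 and 82.9, 72.7, 64.1, 68.4 and 88.4 FPKM in sham lungs 1 to 5. The highest IncPBF lung stayed well under the lowest sham lung. The means were 32.6 ± 2.76 FPKM and 75.3 ± 10.1 FPKM (SD, n = 5 each), a 2.31-fold lower level in IncPBF lungs. On the log2 scale the difference was -1.20 (SE 0.09, 95% confidence interval -1.40 to -0.99, adjusted p = 1.38e-05 by limma). Only 1.15% of the genes tested had a log2 fold change as low or lower.

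Scnn1g, the gamma subunit, which carries sites where proteases cleave and activate the channel, fell next among the subunits. Its level was 40.6, 46.9, 37.1, 45.6 and 48.9 FPKM in IncPBF lungs and 93.3, 86.0, 66.0, 62.6 and 94.3 FPKM in sham lungs. Sham lungs 3 and 4 were the low lungs of their group and still lay above every IncPBF lung. The means of 43.8 ± 4.86 and 80.4 ± 15.1 FPKM (SD, n = 5 each) gave a log2 fold change of -0.86 (SE 0.13, 95% confidence interval -1.14 to -0.58, adjusted p = 0.000614 by limma).

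Scnn1b, the beta subunit, was the least abundant of the channel and the least changed. IncPBF lungs gave 17.3, 20.1, 15.8, 19.0 and 18.4 FPKM and sham lungs 33.5, 29.1, 28.2, 21.4 and 27.7 FPKM. The gap between the groups was small here, between IncPBF lung 2 and sham lung 4. The means were 18.1 ± 1.65 and 28.0 ± 4.32 FPKM (SD, n = 5 each), with a log2 fold change of -0.62 (SE 0.11, 95% confidence interval -0.85 to -0.38, adjusted p = 0.00154 by limma). With Xist (log2 FPKM) as a covariate this fall was -0.67 and lost the call, with an adjusted p of 0.0784 in a range of 0.000226 to 0.0784 over all alternatives.

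The 3 subunits together summed to 94.6 ± 8.21 FPKM in IncPBF lungs and 184 ± 27.5 FPKM in sham lungs (SD, n = 5 each), with ranges of 85.0 to 104 and 152 to 210 FPKM. Scnn1a made up 34.6 ± 2.09% of this sum in IncPBF lungs and 41.1 ± 2.43% in sham lungs, and its share did not overlap between the groups. The share of Scnn1b was 19.2 ± 1.05% against 15.3 ± 1.80%, and that of Scnn1g 46.3 ± 1.49% against 43.6 ± 2.07%. The unequal falls were tested as ratios within a lung, as 3 of 7 ratios whose p-values were adjusted together. Scnn1a to Scnn1b was 2.69 in sham and 1.80 in IncPBF lungs, a log2 difference of -0.58 (exact two-sided permutation p = 0.00794, the smallest that 5 against 5 lungs allow, adjusted p = 0.0185). Scnn1a to Scnn1g differed by -0.34 (exact permutation p = 0.0159, adjusted p = 0.0278). Scnn1b to Scnn1g differed by 0.25 and missed the threshold after adjustment (exact permutation p = 0.0397, adjusted p = 0.0556). The alpha subunit fell by more than either partner within the same lungs.

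**Figure D2:**
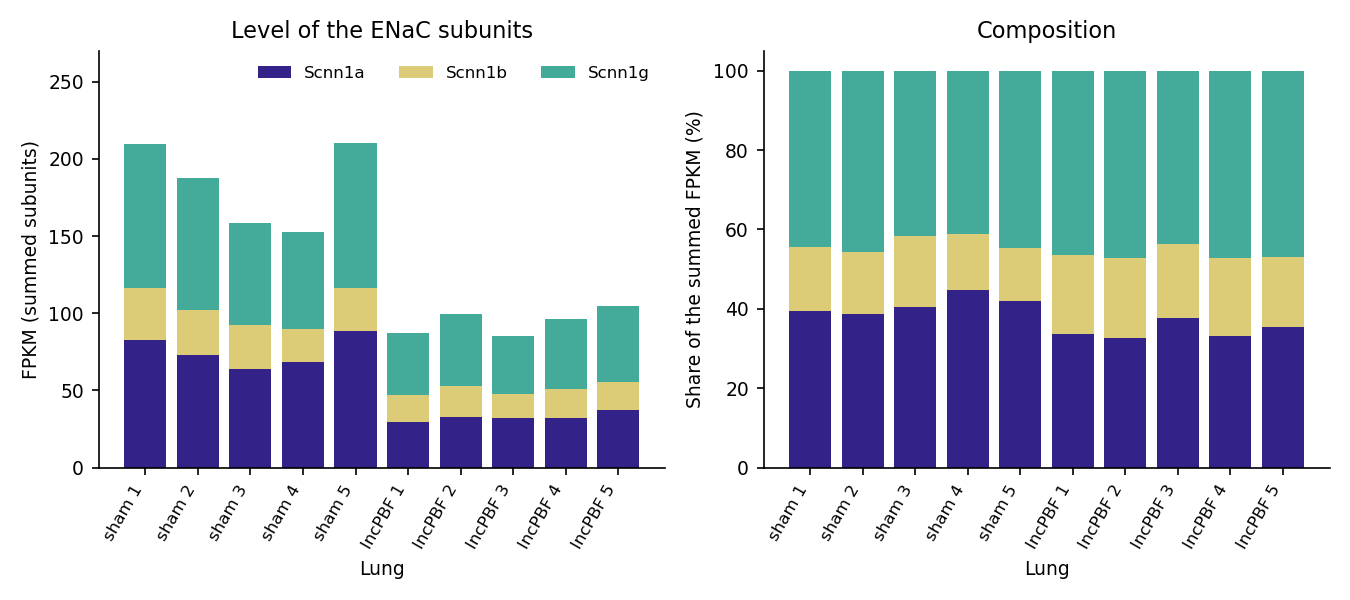
Left, FPKM of Scnn1a, Scnn1b and Scnn1g stacked for each lung, on a linear axis from 0. Right, the same values as a percentage of their sum, with Scnn1a at 32.7 to 37.8% in IncPBF lungs and 38.7 to 44.9% in sham lungs.

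Markers of AT1 and AT2 cells, epithelial cells of the alveolus that carry ENaC, were counted beside the channel. Of 12 AT1 markers 11 were lower and 0 higher, with a summed level of 1628 to 1788 FPKM in IncPBF and 2045 to 2760 FPKM in sham lungs. Their defining gene Ager fell from 853 ± 114 to 584 ± 11.0 FPKM (SD, n = 5 each, log2 fold change -0.54, adjusted p = 0.00157 by limma). Of 12 AT2 markers 5 were lower and 1 higher, with sums of 11789 to 14618 and 14301 to 17744 FPKM. The other 6 did not pass the test, among them the defining gene Sftpc at 10428 ± 949 against 12095 ± 1237 FPKM (log2 fold change -0.21, adjusted p = 0.358 by limma). With the Xist covariate 1 AT1 marker and 0 AT2 markers were lower, and without IncPBF lung 1 and sham lung 5 these counts were 10 and 4. No marker of either list was at 0 in all lungs. In whole-lung RNA fewer cells of a type and less RNA per cell cannot be told apart, and the part of these cell types in the fall of ENaC was not tested.

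Atp1b1 encodes the beta-1 subunit, which carries the catalytic alpha subunit of the sodium pump to the membrane. It lay at 54.9, 51.9, 54.2, 51.4 and 62.1 FPKM in IncPBF lungs and at 129, 95.2, 104, 104 and 93.0 FPKM in sham lungs. Sham lung 1 was the highest and IncPBF lung 5 the highest of its group, with no overlap between the groups. The means were 54.9 ± 4.30 and 105 ± 14.3 FPKM (SD, n = 5 each), which is 1.91-fold lower in IncPBF lungs, with a log2 fold change of -0.93 (SE 0.09, 95% confidence interval -1.13 to -0.73, adjusted p = 4.56e-05 by limma). Nme7, which shares exon bases with it, was at 1.90 FPKM on average in IncPBF and 1.72 FPKM in sham lungs.

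Of the 10 other tested genes of the sodium pump 2 were lower and 1 higher. The remaining 7, among them the beta subunits Atp1b2 and Atp1b3, did not pass the test, and Atp1b3 was at 83.3 ± 4.27 against 84.6 ± 8.04 FPKM (SD, n = 5 each).

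Aqp1, the water channel of capillaries, was the most abundant of the 9 genes and fell to 0.727 times its sham level. It lay at 322, 355, 329, 326 and 398 FPKM in IncPBF lungs and at 509, 525, 395, 395 and 553 FPKM in sham lungs. IncPBF lung 5 reached the level of sham lungs 3 and 4, so the groups overlapped. The means of 346 ± 31.9 and 475 ± 75.2 FPKM (SD, n = 5 each) gave a log2 fold change of -0.45 (SE 0.11, 95% confidence interval -0.70 to -0.20, adjusted p = 0.0113 by limma, exact permutation p = 0.0238). Without IncPBF lung 1 and sham lung 5 it was -0.37 with an adjusted p of 0.0588, and over all alternatives the adjusted p ran from 0.00423 to 0.184, the highest with the Xist covariate, where the log2 fold change was -0.51 with an SE of 0.20.

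Genes of endothelial and red blood cells were counted beside Aqp1. Of 13 endothelial markers 10 were lower and 0 higher, with sums of 1550 to 1641 FPKM in IncPBF and 1747 to 2180 FPKM in sham lungs, and Pecam1, their defining gene, was at 130 ± 4.41 against 168 ± 18.1 FPKM. Relative to the mean of this list Aqp1 differed by -0.08 on the log2 scale (exact permutation p = 0.286, adjusted p = 0.286). Of 7 erythroid genes 5 were lower, with sums of 253 to 1931 and 1466 to 2450 FPKM, and the alpha-globin gene Hba-a1 was at 97.4 to 669.7 FPKM in IncPBF and at 605 to 890 FPKM in sham lungs. With the Xist covariate 2 endothelial and 1 erythroid gene were lower, and without IncPBF lung 1 and sham lung 5 these counts were 7 and 2. No gene of either list was at 0 in all lungs, and the part of red blood cells in the fall of Aqp1 was not tested. According to the methods the lungs were flushed with saline to remove blood, and how evenly this was done was not measured here.

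Aqp5, the apical water channel of AT1 cells, had the smallest fold change of the genes that passed the test. It lay at 74.2, 70.8, 77.0, 75.1 and 77.4 FPKM in IncPBF lungs and at 80.9, 102, 75.4, 91.7 and 98.9 FPKM in sham lungs. Only sham lung 3 fell within the range of the IncPBF lungs, which spanned a few FPKM. The means were 74.9 ± 2.66 and 89.8 ± 11.5 FPKM (SD, n = 5 each), with a log2 fold change of -0.25 (SE 0.08, 95% confidence interval -0.43 to -0.07, adjusted p = 0.0367 by limma, exact permutation p = 0.0238). This call is not firm: it was lost in 14 of 22 alternatives, among them when any lung but sham 1 or sham 3 was left out, with adjusted p from 0.00758 to 0.387. Relative to the mean of the AT1 markers Aqp5 was higher in IncPBF lungs by 0.39 on the log2 scale, without overlap (exact permutation p = 0.00794, adjusted p = 0.0185). The log2 fold changes of the 12 markers ran from -1.63 to -0.36 with a median of -0.52, so the size of this difference depends on the genes listed. The ratio of Aqp1 to Aqp5 was 5.27 in sham and 4.60 in IncPBF lungs (log2 difference -0.20, exact permutation p = 0.0873, adjusted p = 0.102).

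**Figure D3:**
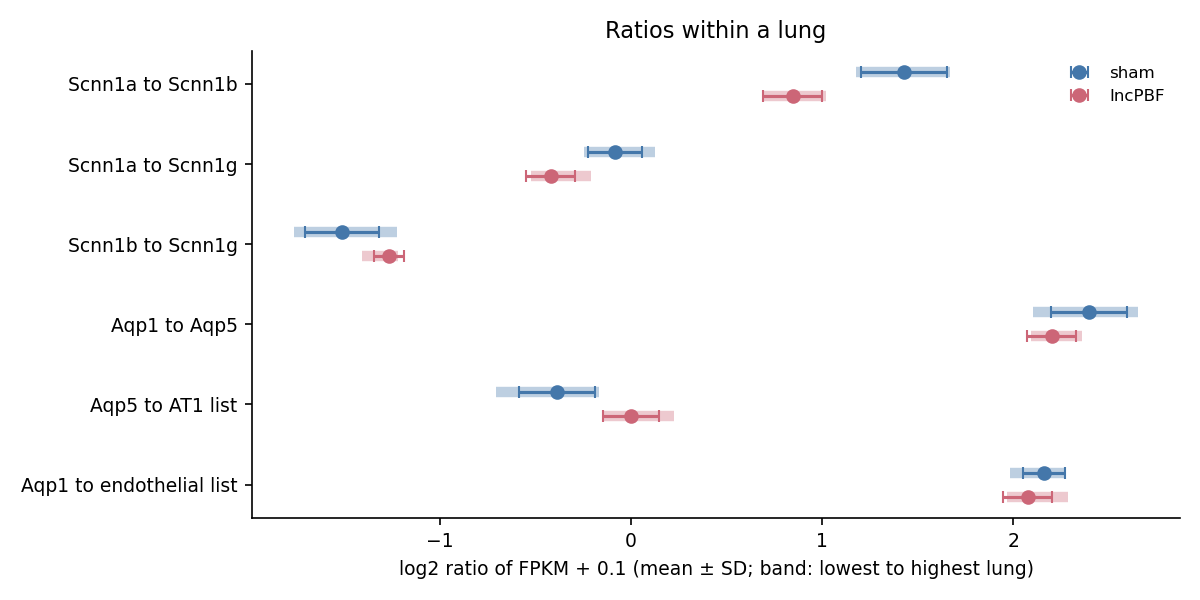
Log2 ratios of FPKM + 0.1 within a lung for 6 of the 7 ratios compared, as mean and SD (points and bars, n = 5) over the range of the lungs (bands), sham in blue and IncPBF in red. The bands are apart for Scnn1a to Scnn1b and for Aqp5 to the AT1 list.

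Cftr, Aqp4 and Aqp3 were scarce, and none of them showed a difference that passed the test. Cftr, the chloride channel, lay at 2.38, 2.47, 2.49, 1.98 and 3.63 FPKM in IncPBF lungs and at 2.52, 1.73, 2.06, 2.59 and 2.35 FPKM in sham lungs, on 253 to 586 fragments per lung. IncPBF lung 5 alone lay above the sham range. The means were 2.59 ± 0.619 and 2.25 ± 0.356 FPKM (SD, n = 5 each), and the log2 fold change of 0.18 had a 95% confidence interval of -0.16 to 0.53 (adjusted p = 0.409 by limma). Leaving out each lung in turn gave 0.056 to 0.27, the lowest without IncPBF lung 5.

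Aqp4 lay at 1.59, 1.47, 1.04, 1.60 and 1.49 FPKM in IncPBF lungs and at 1.62, 0.992, 1.89, 1.03 and 0.735 FPKM in sham lungs, on 65 to 181 fragments per lung. The sham lungs were spread over a wider range, with lung 5, the lung low in Scgb1a1 and Foxj1, at its lower end. Its log2 fold change of 0.24 had a 95% confidence interval of -0.26 to 0.75 (adjusted p = 0.455 by limma). With each lung left out in turn the log2 fold change of Aqp4 ran from 0.085 to 0.40 and did not pass. Aqp3 was near the limit of detection, with 8, 6, 15, 9 and 10 fragments in IncPBF lungs and 25, 5, 6, 11 and 1 in sham lungs. That is 48 fragments in each group and 0.226, 0.175, 0.444, 0.285 and 0.263 FPKM against 0.762, 0.145, 0.174, 0.315 and 0.0314 FPKM. The lowest value was again that of sham lung 5. A difference of Aqp3 was not detected on these few fragments, which also varied widely among the sham lungs (log2 difference 0.22, exact permutation p = 0.667). The airway lists themselves showed no calls: of 7 club-cell genes and 9 tested ciliated-cell genes 0 were higher and 0 lower by limma or by limma-voom (0 and 1 at an unadjusted p under 0.05). The club-cell sum was 5200 to 10954 FPKM in IncPBF and 189 to 12893 FPKM in sham lungs. For the ciliated-cell list these sums were 123 to 176 and 108 to 180 FPKM.

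**Figure D4:**
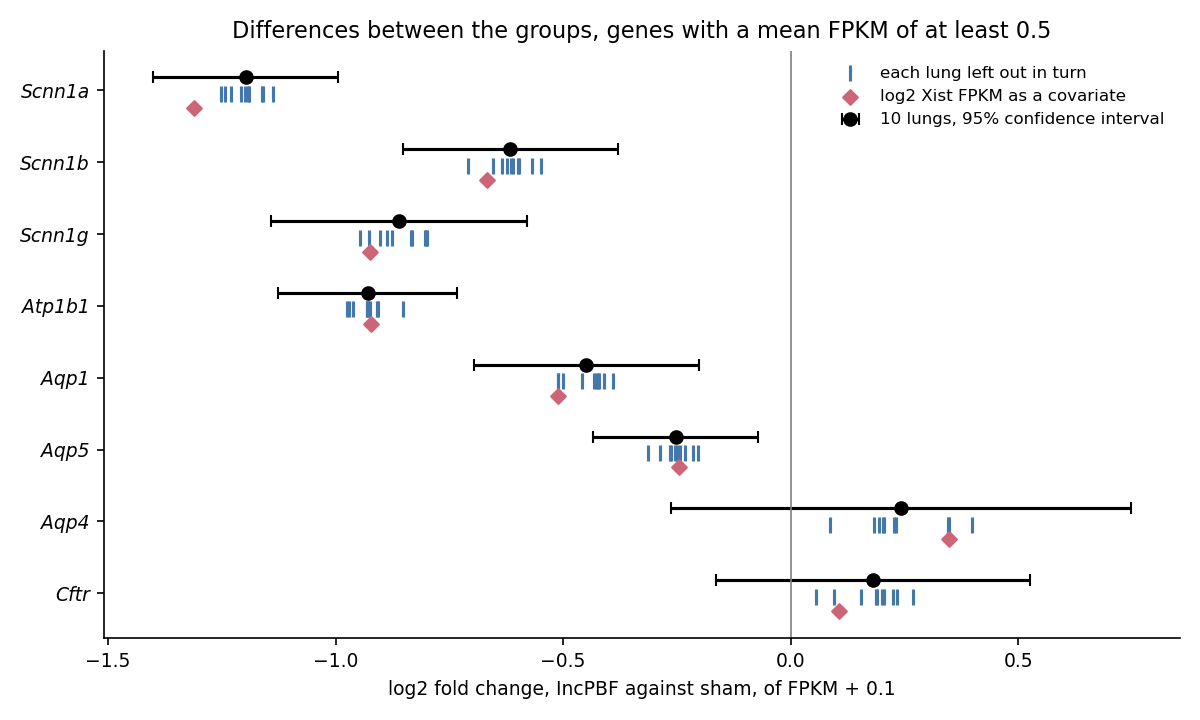
Log2 fold change of FPKM + 0.1, IncPBF against sham, of the 8 tested genes with the 95% confidence interval over 10 lungs (black), each lung left out in turn (blue ticks) and Xist as a covariate (red diamonds). Scnn1a stays between -1.25 and -1.14 and Atp1b1 between -0.97 and -0.85 with any lung left out, whereas the intervals of Aqp4 and Cftr include 0.

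The order of the levels differed between the groups in 1 place. From high to low it was Aqp1, Atp1b1, Aqp5, Scnn1g, Scnn1a, Scnn1b, Cftr, Aqp4 and Aqp3 in sham lungs, and in IncPBF lungs Aqp5 stood above Atp1b1. In sham lungs the ranges of Atp1b1, Aqp5, Scnn1g and Scnn1a overlapped from neighbour to neighbour, as did those of Cftr, Aqp4 and Aqp3. In IncPBF lungs no neighbours overlapped, and each of the 5 lungs had the same order. FPKM is per length, so these levels can be set side by side.

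Some of the genes varied together among lungs of the same group. The correlations are a description over 10 lungs, after each group was centred on its mean, and the labels give no litter or sequencing run that lungs may share. Aqp1 and Scnn1g had r = 0.907, Aqp1 and Scnn1a r = 0.878, Scnn1a and Scnn1g r = 0.82, and Scnn1b and Scnn1g r = 0.768. Aqp4 and Aqp5 went in opposite directions (r = -0.856), and Atp1b1 had no r above 0.631 with any of the other 7. The tested genes closest to each were Raph1 (r = 0.989) and Pde3a (0.972) for Scnn1a, Ppp1r1a (0.943) and 1700066M21Rik (0.942) for Scnn1b, Ahcy (0.969) and Sema3c (0.958) for Scnn1g, and Clmn (0.957) and Riok3 (0.954) for Atp1b1. For the water channels they were Tgm2 (0.982) and Pura (0.981) for Aqp1, Cavin1 (0.935) and Slc39a1 (0.921) for Aqp5, and Tmem40 (0.985) and Kif27 (0.962) for Aqp4. Tfcp2l1 (0.953) and 9330182L06Rik (0.935) were closest to Cftr. These genes were picked for the highest r among all genes tested, which by itself favours high values over 10 lungs. No chance level was computed.

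The wider machinery was read from 8 lists of 75 further genes, of which 59 were tested. Of these 17 were lower, 4 were higher and 38 did not pass the test, and their median log2 fold change was -0.12. The share of lower genes is above the 16.2% of all genes and that of higher genes below the 16.1%. The lists were written with results of these data known. With the Xist covariate 4 of them were lower, among them Tsc22d3, Hsd11b1 and Nedd4l, and 0 higher.

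Among 13 tested regulators of ENaC 4 were lower and 2 higher, and the lowest log2 fold changes of the 8 lists were found here. Tsc22d3, which encodes the glucocorticoid-induced leucine zipper GILZ, lay at 52.2, 41.2, 37.9, 50.6 and 55.1 FPKM in IncPBF lungs and at 168, 152, 120, 117 and 178 FPKM in sham lungs. It was 3.10-fold lower by the means of 47.4 ± 7.41 and 147 ± 27.7 FPKM (log2 fold change -1.63, SE 0.14, adjusted p = 2.37e-05 by limma). Hsd11b1, which regenerates active glucocorticoid, was at 23.1 ± 3.02 against 50.5 ± 6.34 FPKM (log2 fold change -1.12, adjusted p = 4.17e-05 by limma). Nedd4l, the ubiquitin ligase that removes ENaC from the membrane, was also lower, at 4.23 ± 0.234 against 6.72 ± 0.375 FPKM (log2 fold change -0.65, adjusted p = 3.32e-05 by limma). Sgk1, the kinase that inhibits Nedd4l, did not pass the test at 55.1 ± 6.05 against 44.2 ± 7.25 FPKM (log2 fold change 0.33, adjusted p = 0.0516 by limma), though it was called higher in 7 of 22 alternatives. The glucocorticoid receptor Nr3c1 was at 36.9 ± 3.23 against 37.1 ± 2.63 FPKM.

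The proteases that cleave ENaC, and their inhibitors, moved little. Of 7 genes 3 were lower and 0 higher: Furin by -0.29, Prss8 by -0.22 and St14 by -0.19 as log2 fold changes (adjusted p = 0.0287, 0.0285 and 0.0426 by limma). These calls are not firm, and of 22 alternatives 7 ended that of Furin, 10 that of Prss8 and 13 that of St14, with 4, 6 and 8 of them among the 10 that leave out 1 lung. Receptors that regulate fluid transport went both ways, with 2 of 4 tested genes lower and 1 higher. Adrb1 was lower by -0.29 (adjusted p = 0.00799 by limma), and P2ry2, the purinergic receptor that promotes chloride secretion, was higher by 0.45 (adjusted p = 0.00849 by limma).

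Cation and acid-base transporters and tight junctions added 6 lower genes. Of 9 tested transporters 2 were lower and 0 higher, among them the potassium channel Kcnq1 by -0.42 on the log2 scale (adjusted p = 0.00675 by limma). Of 9 tight junction genes 4 were lower and 0 higher, with Tjp1, the scaffold ZO-1, at 62.0 ± 4.20 against 86.4 ± 11.2 FPKM (log2 fold change -0.47, adjusted p = 0.00249 by limma), Cgn at -0.43 and Ocln at -0.34 (adjusted p = 0.00448 and 0.00985). Of 7 tested anion channels and exchangers 0 were called by limma, with 1 at an unadjusted p under 0.05 and 1 by limma-voom, Clcn3. None of the 8 other aquaporins reached the mean for testing, and Aqp6 and Aqp8 were at 0 in all lungs.

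**Figure D5:**
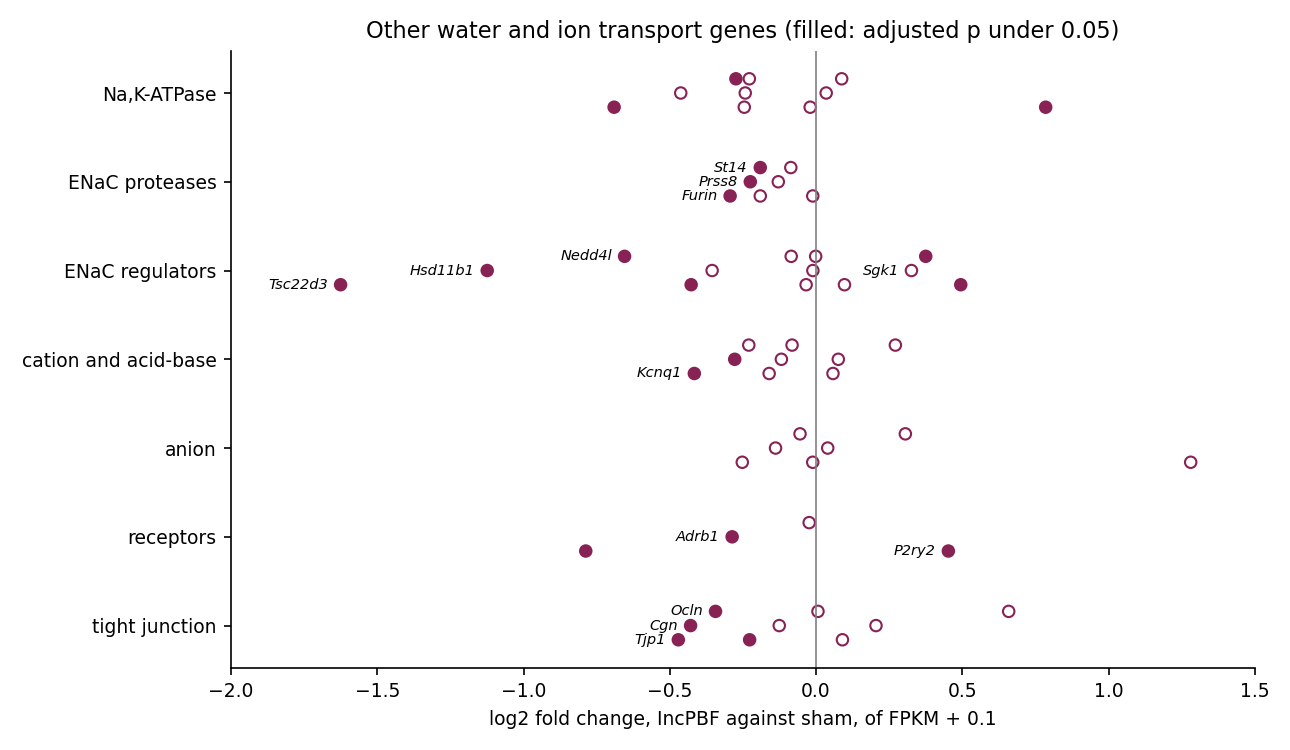
Log2 fold change of FPKM + 0.1, IncPBF against sham, of the 59 tested genes of 7 lists (rows, with a vertical offset for legibility only), filled where the adjusted p of limma is under 0.05. Tsc22d3 and Hsd11b1 lie farthest to the left, and 4 filled points lie to the right of 0.

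Of the further cell types smooth muscle and mesothelial markers differed between the groups, and their part in the results above was not tested. Of 5 smooth muscle genes 3 were higher, with sums of 277 to 549 FPKM in IncPBF and 86.1 to 216 FPKM in sham lungs, and Acta2 at 313 ± 76.6 against 108 ± 36.0 FPKM. All 4 tested mesothelial genes were lower, with sums of 46.6 to 75.9 and 82.1 to 158 FPKM. Of 5 tested cardiac muscle genes and 6 immune genes 0 were called by limma or limma-voom (0 and 1 at an unadjusted p under 0.05), with sums of 32.4 to 98.0 against 7.53 to 46.2 FPKM and of 41.5 to 48.8 against 35.9 to 44.3 FPKM. Basal and submucosal gland genes were scarce, with 1 tested gene each and Dcpp1 and Dcpp2 at 0 in all lungs. The basal sum was 0.832 to 1.49 FPKM in IncPBF and 0.189 to 1.15 FPKM in sham lungs. For the gland list the sums were 1.29 to 5.74 and 1.10 to 3.37 FPKM. Neither tested gene was called by limma or limma-voom, and the basal gene was higher at an unadjusted p under 0.05. With the Xist covariate 1 mesothelial gene was lower and 0 smooth muscle genes were higher, and without IncPBF lung 1 and sham lung 5 these counts were 3 and 3.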

How the data were processed

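IncPBF lungs (5) and sham lungs (5) were profiled by RNA-sequencing of NEBNext libraries. The authors deposited 1 table of FPKM for 54532 genes in the 10 lungs, with gene lengths. The submitters' processing notes name Bowtie 0.12.2 and the builds GRCm38, mm10 and hg38; the counting software, the use of strand and the test were not given in the sources used here. Of 54495 genes shared with GENCODE M21 on GRCm38, 98.3% had the same coordinates. The columns of the fistula lungs carry another abbreviation than the titles and were assigned to IncPBF as a group, since the other 5 are named sham. The fragments on each gene were recovered from FPKM and length, and came out whole within 0.01 fragment for all values.

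The 15388 genes that averaged 0.5 FPKM or more were compared on log2(FPKM + 0.1) with limma 3.58.1 (lmFit, eBayes with a trend) in R 4.3.3, without covariates, with Benjamini-Hochberg adjustment over all genes and a threshold of 0.05. Since FPKM + 0.1 was logged, fold changes of scarce genes are understated. The 7 ratios and single values were compared by two-sided exact permutation of the lungs in Python 3.11.15. The members and lists were chosen with earlier results of these data known. All 9 members are named. From the transport lists the 3 called genes of largest change per list and Sgk1, Nedd4l and Tsc22d3 are named, apart from some results, 1 of the ratios among them, that are not reported here, from the marker lists the first gene, and per member the 2 genes of highest correlation. Atp1b2, Atp1b3, Nr3c1, Clcn3 and those in the closing observations were chosen after their values were seen.

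Alternatives were a pseudocount of 1 or 0.01, a minimum mean of 1 FPKM or no minimum, another scaling (equal total, median centring, quantile), the replicate number as a block, no variance trend, Xist (log2 FPKM) as a covariate, limma-voom on the recovered fragments and each lung left out. Leaving out IncPBF lung 1 and sham lung 5 together was added after the data were seen.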

Additional observations from a re-analysis of the deposited data

Results flagged for a closer look

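In 34 groups of 5 lungs, 17 values in each of the 2 groups, Dixon's test at the 95% level found 2 lungs that lay far from the others of their group, and chance alone marks about 1 in 20 groups. Aqp4 was at 1.04 FPKM in IncPBF lung 3, while the other IncPBF lungs lay between 1.47 and 1.60 FPKM. The log2 ratio of Scnn1b to Scnn1g was -1.41 in IncPBF lung 5, while the other IncPBF lungs lay between -1.25 and -1.22.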

How the results depend on the processing

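Over 22 alternatives 159 of 176 log2 fold changes of the 8 tested genes kept their direction and their side of the threshold, and 0 reversed. Scnn1a, Scnn1g and Atp1b1 passed under every alternative run, Scnn1g narrowly with the Xist covariate (adjusted p = 0.0478 by limma). With Xist (log2 FPKM) as a covariate 3 of the 8 genes were lower (Scnn1a, Scnn1g, Atp1b1), and of the transport lists 0 genes were higher and 4 lower, while calls over all genes dropped from 2480 higher and 2490 lower to 328 and 413; Xist separates 9 of the 10 lungs as surgery does, so this fit rests on IncPBF lung 1. An equal total per lung gave 8 higher genes of the transport lists and moved the calls over all genes to 3560 higher and 1779 lower, with the median shifted by 0.0778 on the log2 scale. Without IncPBF lung 1 and sham lung 5, 4 of the 8 genes and 11 of the transport lists were lower. The ratio of Scnn1b to Scnn1g passed with a pseudocount of 1 (0.26, adjusted p = 0.0333 by exact permutation) and with quantile normalization (0.26, adjusted p = 0.0222); the cause was not tested. With each lung left out in turn this ratio ran from 0.18 to 0.32 and passed only without sham lung 3, the count of lower genes ran from 5 to 6 of the 8, and the transport lists had 3 to 5 higher and 12 to 18 lower genes. With the replicate number as a block 5 of the 8 genes were lower, with 2390 higher and 2482 lower over all genes. The call of Aqp5 was lost at an unchanged log2 fold change of -0.25 (SE 0.0836, adjusted p = 0.0565 by limma). Same-numbered lungs had correlations of -0.067 to 0.085, and 2 of 5 IncPBF lungs correlated best with their own number. The labels give no litter or sequencing run, so whether same-numbered lungs share more than a number was not settled. No model with the block was fitted to the ratios, which were compared by exact permutation alone, and an exact paired permutation of 5 pairs cannot reach 0.05. Aqp3 rests on 1 to 25 fragments per lung, which is also the range among the sham lungs alone. What limits its comparison was not tested.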

Other observations

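Within the regulators of ENaC, 3 further genes passed the test. Hsd11b2, which inactivates glucocorticoid and so protects the mineralocorticoid receptor, was higher at 7.76 ± 0.411 against 5.55 ± 1.00 FPKM in IncPBF and sham lungs (SD, n = 5 each, log2 fold change 0.49, adjusted p = 0.00921 by limma), opposite to Hsd11b1. Stk39, the kinase SPAK that acts on chloride cotransporters, was higher at 4.50 ± 0.272 against 3.45 ± 0.167 FPKM (log2 fold change 0.38, adjusted p = 0.00129 by limma). Wnk1, a kinase upstream of it, was lower at 16.5 ± 1.57 against 22.4 ± 3.76 FPKM (log2 fold change -0.43, adjusted p = 0.0136 by limma). None of these passed with Xist as a covariate. Cldn18, the claudin of alveolar tight junctions, was lower at 162 ± 14.9 against 189 ± 13.7 FPKM with overlap (log2 fold change -0.23, adjusted p = 0.0412 by limma), a call that 14 of 22 alternatives ended, 8 of them by leaving out 1 lung. Aqp11, below the mean for testing, lay at 0.272 to 0.412 FPKM in IncPBF and 0.474 to 0.580 FPKM in sham lungs. The anion exchanger Slc26a4 ranged from 0.0746 to 6.79 FPKM among IncPBF lungs and from 0.0512 to 2.71 FPKM among sham lungs.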
